A study of Mus musculus with 3 samples.

Results

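Acyl-CoA synthetases of the long-chain ACSL family and acyl-CoA thioesterases of the ACOT family were examined in RAW264.7 cells, a mouse macrophage line, after exposure to a single fatty acid. The 9 members were taken by gene symbol: Acsl1, Acsl3, Acsl4, Acsl5, Acot1, Acot2, Acot7, Acot9 and Acot13. Of these 9, 7 had a probe set of their own, as 18820 genes on the array did, and 6 passed a filter on low values, which 9410 of the 18820 genes passed. Acsl3 shared its probe set with another gene, Acot1 lay below the filter and no probe set was annotated to Acsl1.

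The cells came from a public cell repository and were cultured in medium with fetal bovine serum, antibiotics and 5% CO2. A culture was given oleate, elaidate or palmitate at 500 µM over 6 hours. The acids had been dissolved in ethanol and potassium hydroxide and coupled to fatty-acid-free serum albumin, with 2 of their molecules to each albumin. Oleate is a cis monounsaturated fatty acid, elaidate is its trans isomer with the same chain length, and palmitate is saturated and shorter. Each fatty acid has 1 array, 3 arrays in all, and no array of cells without a fatty acid is among them. Every difference below is between a pair of arrays, carries no p-value because there are no replicates, and cannot show a change relative to untreated cells. In RNA from a whole culture, fewer cells with a transcript and less of it per cell cannot be told apart.

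A long-chain fatty acid enters metabolism only after a synthetase has joined it to coenzyme A, and the acyl-CoA so formed can be oxidised, built into lipids or used to modify proteins. Thioesterases act against this step by splitting the acyl-CoA, which releases the free acid and coenzyme A. ACSL enzymes sit on the endoplasmic reticulum, the outer mitochondrial membrane and lipid droplets, whereas ACOT enzymes occur in the cytosol, mitochondria and peroxisomes, so that both control the acyl-CoA supply of a compartment. Several ACOT and ACSL genes are known targets of PPAR nuclear receptors, which fatty acids activate.

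Each deposited value is the log2 expression of a probe set, and a difference of 1 is 2-fold. All 10 markers of macrophages passed the filter. Of the markers of other cells with a probe set of their own, none of 4 for adipocytes, 1 of 4 for hepatocytes (Alb), 1 of 5 for fibroblasts (Col1a1), none of 5 for lymphocytes and 1 of 4 for neutrophils (S100a8) did so. Macrophage markers summed to a log2 value of 100.8 on the oleate, 99.7 on the elaidate and 95.4 on the palmitate array. For palmitate minus oleate 9 of the 10 were lower and 1 equal. Among all genes past the filter 36.8% were lower there, and 2.87% were at least 2-fold different in either direction. Mertk, a receptor for apoptotic cells, was the one marker past 2-fold, with palmitate minus oleate at -2.10. It stood at 7.67, 7.30 and 5.57 on the oleate, elaidate and palmitate arrays. The part of these markers in the differences below was not tested. Over all 9410 genes, log2 differences had a standard deviation of 0.13 between elaidate and oleate, 0.38 between palmitate and oleate and 0.33 between palmitate and elaidate, with a median of 0 in each comparison. The summarised values were equal on all 3 arrays, to within 1e-06, for 27.5% of genes past the filter and 75.6% of genes below it, so an equal value does not show equal RNA.

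Acot2 is a mitochondrial thioesterase that acts on long-chain acyl-CoA. Of the members with a probe set of their own, it differed by far the most between palmitate and either monounsaturated acid. Its log2 value was 9.22 on the oleate, 9.68 on the elaidate and 11.37 on the palmitate array. The palmitate array was therefore high, and the cis and trans arrays lay below it, closer to each other than to the palmitate array. Palmitate minus oleate was 2.15, or 4.44-fold, and palmitate minus elaidate was 1.70, or 3.24-fold. These were the 28th and 27th highest differences among the 9410 genes, and only 0.351% and 0.383% of genes lay as far from 0 in either direction. Elaidate minus oleate was 0.45, or 1.37-fold, the 122nd highest, with 1.52% of genes as far from 0. On the log2 scale the trans isomer lay 21.0% of the way from the oleate to the palmitate value.

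**Figure D1:**
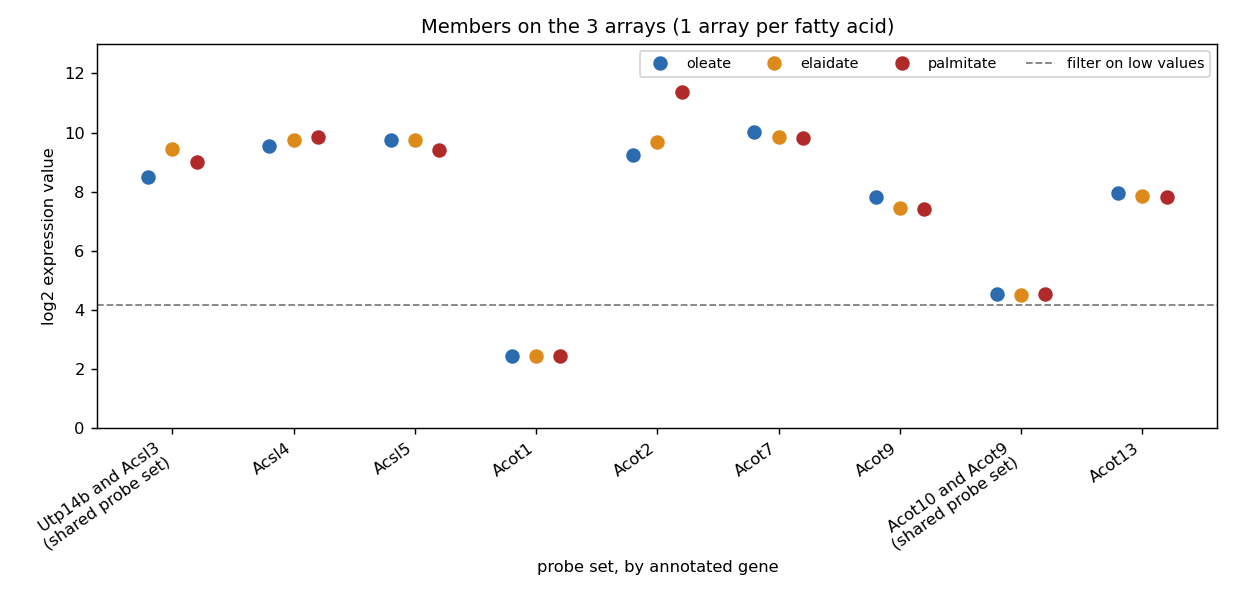
Log2 expression value of each member probe set (horizontal axis) on the oleate, elaidate and palmitate arrays (points, 1 array each); the dashed line is the filter on low values at 4.14. Acot2 on the palmitate array, at 11.37, stands above its other points at 9.22 and 9.68, and the points of Acot1 coincide at 2.44.

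Acot1, the cytosolic paralogue next to Acot2, had a log2 value of 2.44 on every array and lay below the filter at 4.14. In the RefSeq annotation the order of protein-coding genes on chromosome 12 runs Acot2, Acot1, Acot4, Acot3, Acot5, Acot6, a cluster of related thioesterases. Acot4, Acot3 and Acot5 were equal on all 3 arrays, at 2.31, 2.72 and 2.67. Acot6 stood at 3.63 on the oleate and elaidate arrays and 3.88 on the palmitate array. Of the 6 genes in the cluster, Acot2 was thus the one past the filter. On its sides, Riox1 before the cluster stood at 4.72, 4.71 and 4.71 on the oleate, elaidate and palmitate arrays, and Dnal1 after it stood at 3.83 on each. Acot1 and Acot2 are close paralogues, and whether the Acot2 probe set also takes up other transcripts of the cluster was not tested.

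**Figure D2:**
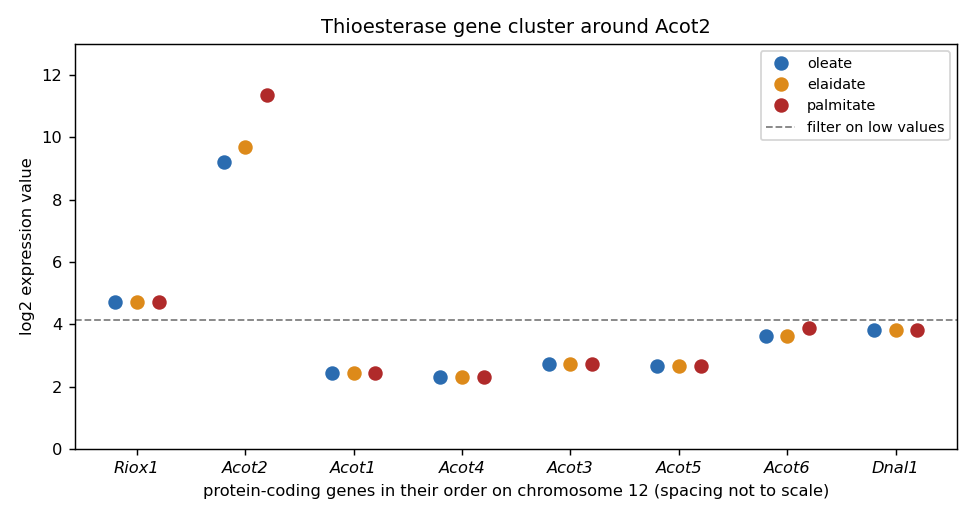
Log2 expression value of the 6 clustered thioesterase genes and the gene on each side, in their order on chromosome 12 (horizontal axis, not to scale), on the 3 arrays (points). Acot2 lies between 9.22 and 11.37, and its 5 relatives in the cluster lie below the filter (dashed line).

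The promoters of this pair of neighbours are shown because one gene was high and differed between fatty acids while the other lay below the filter. They are RefSeq sequences of GRCm38.p6, on the plus strand, at chr12:83987611-83987890 for Acot2 and chr12:84009252-84009531 for Acot1. Each gives 250 bases before the annotated start in lower case and the first 30 bases from it in capitals.
Acot2: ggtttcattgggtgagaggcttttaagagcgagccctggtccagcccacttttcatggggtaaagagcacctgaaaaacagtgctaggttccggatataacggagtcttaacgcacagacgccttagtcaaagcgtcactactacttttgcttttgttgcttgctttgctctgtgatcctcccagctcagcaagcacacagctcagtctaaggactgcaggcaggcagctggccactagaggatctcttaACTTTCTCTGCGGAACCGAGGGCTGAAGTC
Acot1: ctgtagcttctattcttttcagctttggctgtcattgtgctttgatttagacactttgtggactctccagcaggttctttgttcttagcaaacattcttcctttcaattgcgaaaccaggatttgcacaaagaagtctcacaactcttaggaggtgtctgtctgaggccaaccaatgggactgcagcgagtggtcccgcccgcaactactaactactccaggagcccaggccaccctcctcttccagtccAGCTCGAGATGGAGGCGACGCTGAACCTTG

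For 8 of the 9 members, all but Acot13, the RefSeq table held a promoter of 300 bases, 250 before and 50 after the start. They were searched on both strands for the direct repeat bound by PPAR (AGGTCA and again AGGTCA with 1 base of any kind between), the response element of C/EBP-ATF pairs (TGATGNAA), the sterol regulatory element in its classical form and the E-box (CACGTG). None of these motifs occurred in the 8 members' windows. Among all 32817 promoters of that length the motifs occurred in 0.0396%, 3.97%, 0.235% and 7.15%. GC content was 51.3% for Acot2 and 52.0% for Acot1, beside a median of 52.7% over all promoters, and 71.7% for Acsl4. A missing match says only that these letters are not in these windows.

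The other thioesterases past the filter, Acot7, Acot9 and Acot13, were ordered the other way round from Acot2. They belong to the hot-dog fold type of thioesterase, whereas Acot2 and its clustered relatives are of the alpha/beta-hydrolase type. All 3 were highest on the oleate array, lower on the elaidate array and lowest on the palmitate array. Acot9, a mitochondrial enzyme, stood at 7.83, 7.44 and 7.42 on the oleate, elaidate and palmitate arrays. The oleate array alone was high, since palmitate minus elaidate was only -0.03. Elaidate minus oleate was -0.39, or 1.31-fold lower on the elaidate array, the 39th lowest of the 9410 genes, with 2.28% of genes as far from 0. Palmitate minus oleate was -0.41, or 1.33-fold lower on the palmitate array, and there 16.1% of genes lay as far. A further probe set annotated to both Acot10 and Acot9 stood at 4.54, 4.48 and 4.54. These values lie near the filter at 4.14, so they cannot show whether the high oleate value of the Acot9 probe set has a counterpart.

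Acot7, a cytosolic enzyme that hydrolyses arachidonoyl-CoA, stood at 10.01 on the oleate, 9.86 on the elaidate and 9.81 on the palmitate array. Elaidate minus oleate was -0.15, palmitate minus oleate -0.20 and palmitate minus elaidate -0.06. Acot13, a small thioesterase that binds phosphatidylcholine transfer protein, stood at 7.95, 7.87 and 7.80, with differences of -0.08, -0.15 and -0.06 in the same order. Values of this size were common: 32.2% of genes lay as far from 0 as Acot7, and 39.4% as far as Acot13, for palmitate minus oleate. For elaidate minus oleate the shares were 15.1% and 26.6%.

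**Figure D3:**
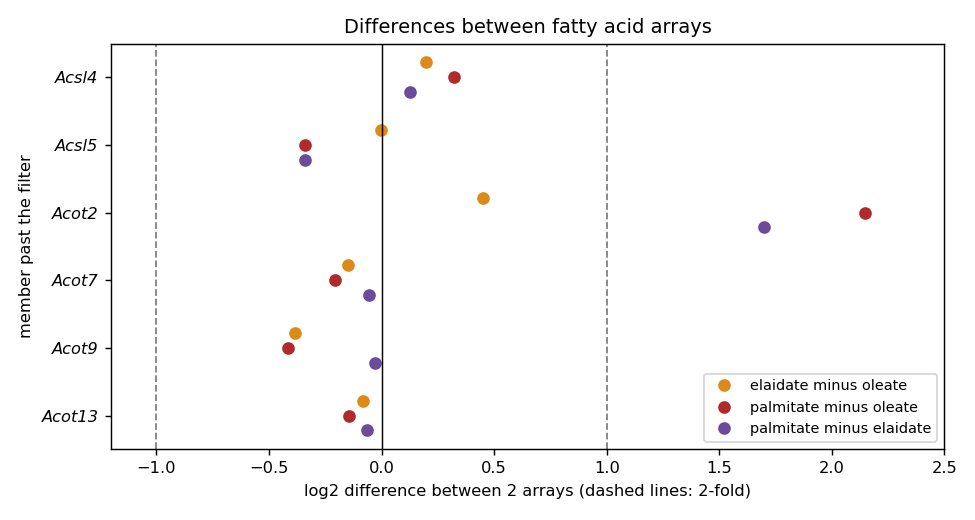
Log2 difference between arrays (horizontal axis; dashed lines mark 2-fold) for the 6 members past the filter in the 3 comparisons (points, 1 pair of arrays each). Acot2 is past 2-fold when palmitate is set against oleate, at 2.15, and against elaidate, at 1.70, and the points of the other 5 members lie within 0.41 of 0.

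Of the synthetases, Acsl4 and Acsl5 could be read, and they differed in direction. Acsl4, which prefers arachidonate and other polyunsaturated acids, stood at 9.54 on the oleate, 9.74 on the elaidate and 9.86 on the palmitate array, the same order as Acot2. Elaidate minus oleate was 0.20, with 9.81% of genes as far from 0, palmitate minus oleate was 0.32, with 21.5% as far, and palmitate minus elaidate was 0.12, with 39.9% as far. Acsl5, a synthetase of the endoplasmic reticulum and mitochondria, stood at 9.74 on both monounsaturated arrays and at 9.40 on the palmitate array. The cis and trans isomers gave nearly the same Acsl5 value, and palmitate was lower by a log2 difference of -0.34 against each, or 1.27-fold. Against oleate 20.2% of genes lay as far from 0, and against elaidate 18.1%.

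Acsl3, the synthetase of nascent lipid droplets, shares its probe set with Utp14b, a gene of ribosomal RNA processing that overlaps it, and the reading cannot be assigned to either. That probe set stood at 8.479 on the oleate, 9.452 on the elaidate and 9.004 on the palmitate array. It was the one reading among the members' probe sets past the filter with elaidate highest. Elaidate minus oleate was 0.97, or 1.96-fold, just short of 2-fold. Palmitate minus oleate was 0.52, and palmitate minus elaidate was -0.45.

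Taking the 6 members past the filter as a list, none was at least 2-fold different between elaidate and oleate, beside 0.106% of all 9410 genes. For palmitate minus oleate 1 of 6, Acot2, was at least 2-fold higher, beside 1.65% of genes, and none was 2-fold lower, beside 1.22%; in either direction the share of all genes was 2.87%. For palmitate minus elaidate it was again 1 of 6, Acot2, beside 0.978% of genes higher, with none lower, beside 0.871%, and 1.85% in either direction. In each comparison the same 2 members, Acot2 and Acsl4, were higher and the other 4 were lower, Acsl5 by no more than -0.00055 for elaidate minus oleate. Among all genes, 31.5% were higher and 24.3% lower between elaidate and oleate, 30.9% and 36.8% between palmitate and oleate, and 27.9% and 37.9% between palmitate and elaidate. The median over the 6 members was -0.04, -0.18 and -0.04 in the 3 comparisons, and without Acot2 it was -0.08, -0.20 and -0.06. The comparisons share arrays, so their counts are not independent.

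By structure, the cis and trans isomers were within 1.37-fold of each other for each of the 6 members, with Acot2 and Acot9 furthest apart. The saturated acid was within 1.33-fold of either monounsaturated one for 5 of the 6, and Acot2 was the exception. All 3 pairs of compounds were compared at the same dose and time; with 1 array each no interval can be given, and small differences do not show that the acids act alike. Elaidate held the middle value for 6 of 6 members, though for Acsl5 it differed from oleate by only -0.00055, beside 60.2% of the 4186 genes with 3 different values. For Acot9 it lay 93.2% of the way from the oleate to the palmitate value, for Acot7 72.2%, for Acsl4 61.4% and for Acot13 56.6%, against 21.0% for Acot2.

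The genes most like Acot2 were sought among 9087 other genes past the filter, by the Euclidean distance between log2 values centred on each gene's mean over the 3 arrays. The nearest were Napb, a vesicle fusion protein, at a distance of 0.077, Arid5a, which binds inflammatory messenger RNAs, at 0.098, and Lcn2, an iron-sequestering lipocalin, at 0.15. For palmitate minus oleate, Napb stood at 2.08, Arid5a at 2.04 and Lcn2 at 2.31 in log2. Their elaidate minus oleate differences were 0.49, 0.46 and 0.41.

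**Figure D4:**
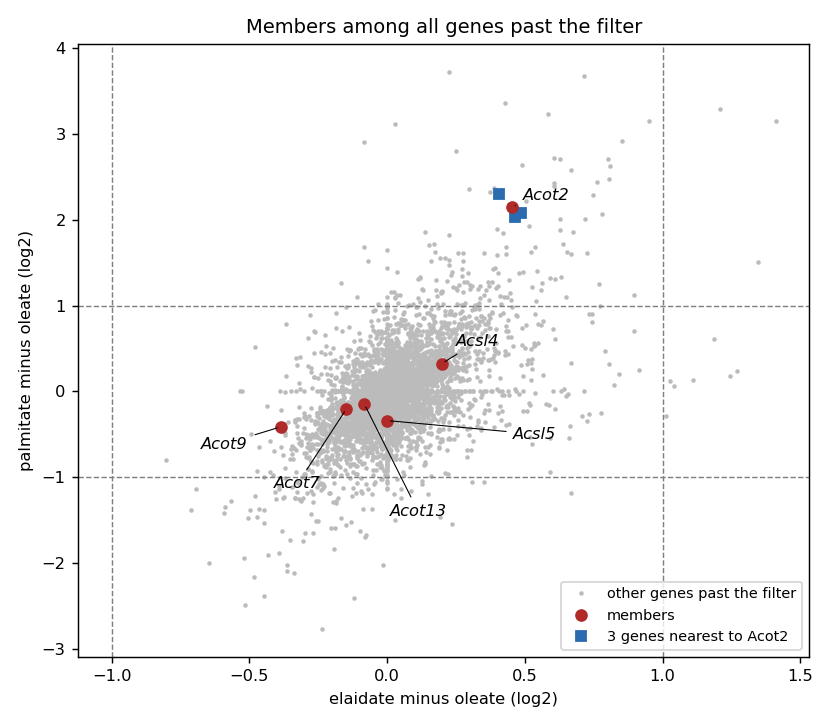
Each point is a gene past the filter, with elaidate minus oleate on the horizontal axis and palmitate minus oleate on the vertical axis, both in log2 with dashed lines at 2-fold; the axes share the oleate array. Acot2, at 0.45 and 2.15, sits apart from the other 5 members, which lie inside the main cloud or, for Acot9 at -0.39, at its left edge.

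Other members of both families mostly lay below the filter. Of 11 further ACSL, ACSBG and ACOT genes 9 had a probe set of their own and 2 passed the filter: Acot11 at 5.52 on all 3 arrays and Acsbg1 at 4.85, 4.76 and 4.85 on the oleate, elaidate and palmitate arrays. Among 8 other thioesterases, 5 of them past the filter, 1 was at least 2-fold different in the palmitate comparisons, where 2.87% of all genes against oleate and 1.85% against elaidate were. Them4, a mitochondrial thioesterase, stood at 5.12 on the oleate, 5.01 on the elaidate and 6.22 on the palmitate array. As for Acot2, the palmitate array was the high one, at 1.10 over oleate and 1.21 over elaidate. The list's median was nevertheless -0.16 in both palmitate comparisons and 0 for elaidate minus oleate.

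Among 17 other acyl-CoA synthetases, 6 passed the filter. For elaidate minus oleate 1 was at least 2-fold different, beside 0.106% of all genes, and for palmitate minus elaidate 2 were, beside 1.85%. Those past 2-fold were highest on the elaidate array. Acss2, which activates acetate, stood at 7.24 on the oleate, 8.48 on the elaidate and 7.42 on the palmitate array, so that elaidate minus oleate was 1.24 and palmitate minus elaidate -1.06. Aacs, the acetoacetyl-CoA synthetase, stood at 8.09, 8.62 and 7.48, and its palmitate minus elaidate difference was -1.14. For palmitate minus oleate the list had 3 higher, 2 lower and 1 equal, none past 2-fold, with a median of 0.0026. Among all genes past the filter 30.9% were higher there, 36.8% lower and 2.87% at least 2-fold different. Of the 5 acyl-CoA binding proteins past the filter none was 2-fold different in any comparison. At most 2.87% of all genes were, and as few as 0.106% between the cis and trans arrays. With so few genes, a list without any does not stand out. Dbi, the main cytosolic carrier of acyl-CoA, at -0.45 for palmitate minus elaidate, and Acbd3, at 0.40 for palmitate minus oleate, were furthest from 0.

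Genes that consume acyl-CoA were described in the same way. In mitochondrial oxidation, 18 genes passed the filter, and 2 were higher, 8 lower and 8 equal for palmitate minus oleate, with a median of 0, beside 30.9% higher and 36.8% lower among all genes. Cpt1a, which passes acyl groups to carnitine for import into mitochondria, was the one past 2-fold, at 7.98 on the oleate, 7.78 on the elaidate and 6.39 on the palmitate array. Palmitate minus oleate was -1.60 and palmitate minus elaidate -1.39, where 2.87% and 1.85% of all genes were at least 2-fold different. Cpt1a was thus low on the array where Acot2 was high. In peroxisomal oxidation none of 10 genes was 2-fold different, beside the same shares in the palmitate comparisons and 0.106% for elaidate minus oleate. Abcd2, a peroxisomal fatty acyl transporter, at -0.76 in both palmitate comparisons and Pex11a at 0.47 for palmitate minus oleate were furthest from 0.

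Of PPAR targets outside both families 7 of 20 passed the filter, with 3 higher and 4 lower for palmitate minus oleate, beside the same 30.9% and 36.8% of all genes, and a median of -0.33. Angptl4, a lipase inhibitor induced by fatty acids, stood at 5.95 on the oleate, 5.87 on the elaidate and 5.61 on the palmitate array, the opposite order to Acot2. Plin2, which coats lipid droplets, stood at 11.13, 11.33 and 11.30, and Fabp4 at 5.25, 6.04 and 5.71. Pex11a, at 4.87, 5.19 and 5.35, had the same order as Acot2, while Slc25a20 and Acaa2 were lowest on the palmitate array. Cpt1a, also of this list, was the only one of the 7 past 2-fold, beside 2.87% of all genes against oleate and 1.85% against elaidate. Among 12 esterification genes past the filter, 1 was past 2-fold for elaidate minus oleate and 1 for palmitate minus oleate. For palmitate minus elaidate 1 was past 2-fold higher and 1 lower. The shares of all genes past 2-fold either way were 0.106%, 2.87% and 1.85%. Gpat3, a glycerol-phosphate acyltransferase of the endoplasmic reticulum, stood at 3.76 on the oleate and elaidate arrays and 5.41 on the palmitate array. It was 1.65 higher on the palmitate array, through which alone it passed the filter. Lpin1, a phosphatidate phosphatase, stood at 6.25, 7.52 and 6.48 and so was highest on the elaidate array, at 1.27 over oleate; the list's medians were 0.08, -0.01 and -0.16 in the 3 comparisons.

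**Figure D5:**
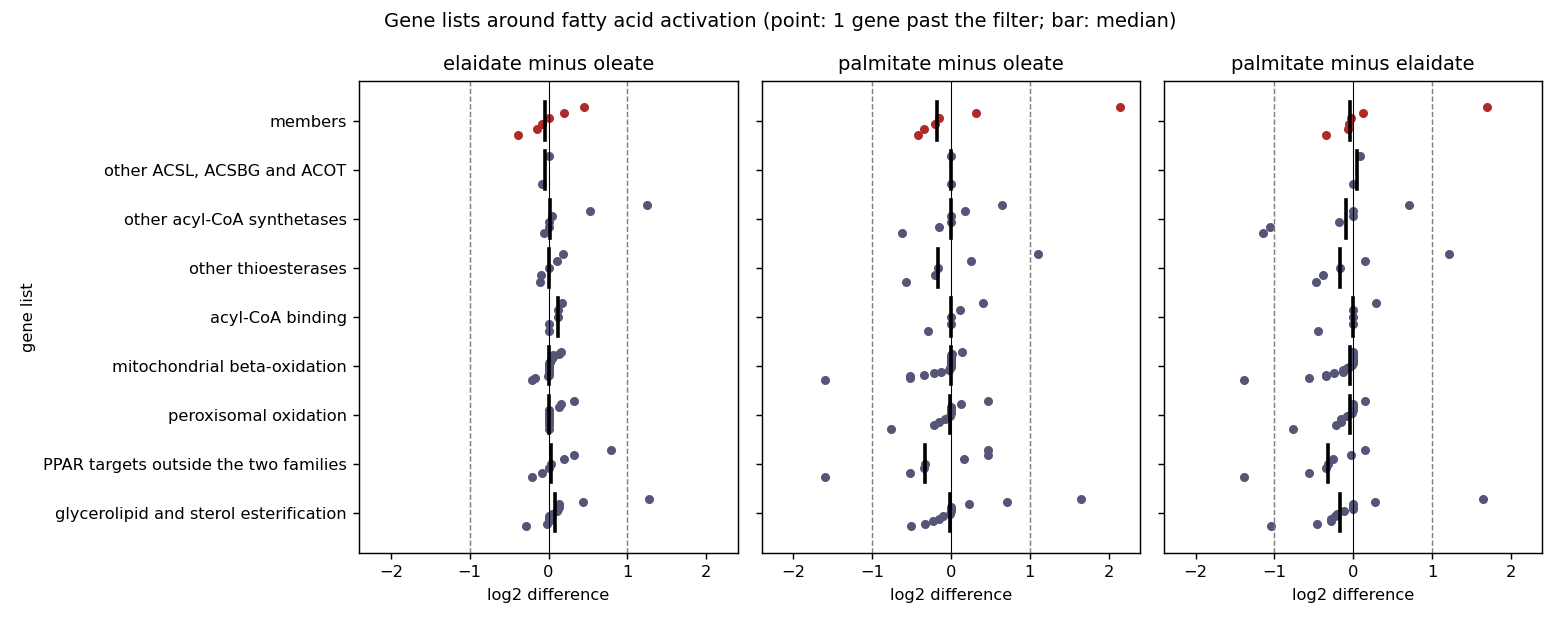
Log2 differences (horizontal axes; dashed lines mark 2-fold) of the members and of 8 further gene lists in the 3 comparisons; each point is a gene past the filter and each black bar the median of its list. Acot2 is the rightmost point of the members, at 2.15 for palmitate minus oleate, and Cpt1a, at -1.60, the leftmost of 2 lists that hold it.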

How the data were processed

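RNA from the cultures was labelled for whole-transcript arrays, per the labels' protocols. The authors deposited log2 values of 35556 probe sets; the submitters' processing notes name RMA, without a version. RMA corrects background, equalises array distributions and summarises probes by median polish, and the values were used as deposited. Arrays have no depth to report, and their number limits the precision. Groups came from the labels.

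Gene names came from the platform annotation, which can be old: 21218 had 1 gene symbol and were used, 1881 had several and 12457 were not named there. Symbols were updated through gene identifiers, of which 21185 matched RefSeq. Probe sets of a gene were averaged. A gene passed the filter when its mean log2 value reached 4.14, the median over genes. No test was made. The counting step was checked on simulated data with large changes and little noise, which tests the code and not the differences here.

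The members and lists were chosen with earlier results of these data known. The text names all members. In each list of lipid genes, every gene past the filter and at least 2-fold different is named, or else the 2 furthest from 0. Also named are the 3 genes nearest to each member past 2-fold, leaving out predicted genes, small RNA genes and olfactory or vomeronasal receptors. Angptl4, Plin2, Fabp4, Slc25a20, Acaa2, markers and the neighbours of Acot2 were added with their values known. The deposited files name no genome build, unlike the RefSeq promoter sequences. Alternatives were the probe set with the highest mean, median centring, cyclic loess (limma 3.58.1 in R 4.3.3), no filter or one at the 75th percentile, and limits of 1.5-fold and 3-fold. Python 3.11.15, numpy 2.4.6 and pandas 2.3.3 were used.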

Additional observations from a re-analysis of the deposited data

How the results depend on the processing

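No paired analysis was possible because each fatty acid has 1 array. Member differences were recomputed with median centring, cyclic loess and the probe set with the highest mean, 63 in all. The 21 of the last kind could not move, because each measured member has 1 probe set of its own. All 63 kept their sign, where they had one, and their side of 2-fold, and the largest shift was 0.040 in log2. The counts of members past the limit, 0 for elaidate minus oleate and 1 in each palmitate comparison, were the same with limits of 1.5-fold and 3-fold. They were also the same without a filter, but only Acot1 joins there, with differences of 0, so that setting could not change them. A filter at the 75th percentile gave the same counts and the same medians over members. An alternative chosen after seeing the data, counting the probe set shared by Utp14b and Acsl3 as Acsl3, gave the same counts at 2-fold, and with a limit of 1.5-fold it moved the count for elaidate minus oleate from 0 to 1, through that probe set. Acot1 and its 4 neighbours Acot3, Acot4, Acot5 and Acot6 lay below the filter, where no difference can be read with confidence.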
